A study of Mus musculus with 13 samples.

Results

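Collagen alpha chain genes encode the polypeptides from which the collagens are built. They were taken here as every mouse symbol made of Col, a number, the letter a and a number, which gave 44 genes among 24777 symbols. All 44 were listed both in the tissue table (23238 symbols) and in the culture table (24542 symbols). The symbol pattern uses no measured value, but this family was picked with earlier results of these data known. The tissue set held 7 RNA-seq libraries from the hippocampus of 3xTg mice, an Alzheimer disease model in which mutant human amyloid precursor protein and tau are expressed in neurons from Thy1 promoters in animals that also carry a mutant presenilin 1. Of these, 3 came from mice given a control adeno-associated virus 9 (AAV9) and 4 from mice given AAV9 for Nurr1 (symbol Nr4a2) and Foxa2, abbreviated N+F. The labels give amyloid beta as the treatment of both tissue groups, and give no age, sex or number of animals. The culture set held 6 libraries, 1 per group, of glia from ICR mouse pups at postnatal day 1. Hippocampal and cortical glia were each profiled with a control lentivirus and no amyloid beta (untreated), with a control lentivirus and amyloid beta (amyloid beta control), and with an N+F lentivirus and amyloid beta (N+F).

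Each collagen is a trimer of alpha chains wound into a triple helix, which is hydroxylated and folded in the endoplasmic reticulum, secreted, trimmed by proteinases and cross-linked outside the cell. Fibrillar collagens (types I, II, III, V, XI, XXIV and XXVII) form the fibres of connective tissue, type IV forms the sheet of basement membranes, type VI forms beaded filaments, type VIII and X form short chain networks, and the fibril-associated collagens with interrupted helices (FACITs) decorate fibres. Brain tissue itself has little fibrillar collagen. In the brain the fibrillar chains are known chiefly from fibroblasts of the meninges and of larger vessels, and type IV from the vascular basement membrane. Col1a1 and Col1a2 encode type I, and Col3a1 type III.

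Promoters of 35 of the 44 genes were found in the RefSeq table of windows from 250 bases before to 50 bases after a gene's start (build GRCm38.p6). The stretch before the start is shown for 3 fibrillar chains that had low levels together in the N+F tissue libraries, and whose promoters differ in letters. In capitals are matches to CCAAT, to GGGCGG (in reverse as CCGCCC) and to TATAAA.
Col1a2, chr6:4505368-4505617, plus strand: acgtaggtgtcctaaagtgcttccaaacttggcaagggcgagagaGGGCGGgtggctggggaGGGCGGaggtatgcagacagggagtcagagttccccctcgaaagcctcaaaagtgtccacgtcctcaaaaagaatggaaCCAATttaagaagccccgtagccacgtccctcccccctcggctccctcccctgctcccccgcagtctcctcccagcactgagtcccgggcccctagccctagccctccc
Col3a1, chr1:45311288-45311537, plus strand: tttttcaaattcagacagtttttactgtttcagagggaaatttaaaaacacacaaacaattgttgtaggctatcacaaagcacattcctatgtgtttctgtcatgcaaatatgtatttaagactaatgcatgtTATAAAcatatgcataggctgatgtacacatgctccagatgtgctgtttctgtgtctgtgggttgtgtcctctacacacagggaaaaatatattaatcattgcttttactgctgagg
Col5a1, chr2:27886175-27886380, plus strand, 206 bases: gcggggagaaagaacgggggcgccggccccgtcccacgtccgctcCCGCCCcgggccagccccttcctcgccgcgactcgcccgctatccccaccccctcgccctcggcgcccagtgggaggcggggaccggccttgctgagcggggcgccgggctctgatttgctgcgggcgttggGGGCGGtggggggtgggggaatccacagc
The Col1a2 stretch held a CCAAT and a pair of GGGCGG matches at 62.0% G+C, the Col3a1 stretch a TATAAA match at 35.2% G+C, and the Col5a1 stretch GGGCGG matches on both strands at 77.7% G+C. Each motif was searched on both strands, and motifs were allowed to overlap. In the 38 windows of the 35 genes GGGCGG was in 60.5%, against 35.7% of all 32851 windows in the table. The shares were 34.2% and 37.4% for CCAAT and 13.2% and 13.6% for TATAAA. The Nr4a family's binding letters AAAGGTCA were in 5.26% of the collagen windows (those of Col23a1 and Col24a1) and in 1.51% of all windows. The forkhead letters TGTTTAC or TATTTAC were in 5.26% (Col6a1 and Col8a1) and in 6.54%. The Col1a2, Col3a1 and Col5a1 windows held neither, and a match or its lack describes the letters of a window only.

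Library totals ran from 10194437 to 25139406 counts in tissue and from 52189025 to 78273121 in culture. Whether each tissue library is a different mouse is not stated, so the p-values below rest on spread between libraries that could be technical alone. Neither delivered gene fully separated the tissue groups. Nr4a2 was at 19.4 to 45.1 CPM (counts per 1000000 of a library's total) in the controls and 22.1 to 34.2 in N+F. Foxa2 was at 0.20, 0.08 and 0.08 CPM in controls 1 to 3 (1 to 5 counts). In N+F libraries 1 to 4 it was at 2.55, 0.45, 0.09 and 0.49 CPM (1 to 26 counts), so only N+F 3 lay within the control range. The untreated cultures, labelled glia, held neuron and oligodendrocyte markers at levels given with their comparison. In culture Foxa2 had 0 counts in the 4 libraries without the N+F virus, 140.3 CPM in hippocampal N+F glia and 13.5 CPM in cortical N+F glia. Nr4a2 was at 58.3, 3.35 and 487.5 CPM in untreated, amyloid beta control and N+F hippocampal glia and at 19.0, 5.14 and 36.9 CPM in cortical glia. The cortical N+F library thus had less of both delivered genes than the hippocampal one, and less Nr4a2 than untreated hippocampal glia. Control library 1 of the tissue set, the one with the most counts, stood apart in its collagens. Of the 39 chains tested in tissue it was at least 2-fold above the mean of the other controls in 14 (35.9%, against 1.08% of all genes tested) and at least 2-fold below it in 4 (10.3%, against 1.58%). Those 4 were Col1a1, Col1a2, Col3a1 and Col5a2, all fibrillar chains.

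In 3xTg hippocampus the question was which collagen chains differed after N+F delivery. Col1a1, Col1a2, Col3a1, Col5a1, Col5a2 and Col12a1 were lower in every N+F library than in every control, and Col1a1, Col5a1 and Col12a1 fell past the test. No chain rose past it. The type I chains made up 39.4% and 39.8% of all collagen counts in controls 2 and 3, but 2.76% in control 1 and 1.66 to 3.81% in the N+F libraries. Collagens together took 0.0635 to 0.0809% of all counts in the controls and 0.0232 to 0.0414% in N+F, with no overlap between the groups. In bulk tissue, fewer cells of a type and less RNA per cell cannot be told apart.

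Col1a1, the major chain of type I collagen, was at 12.03 CPM in control 1, 139.8 in control 2 and 138 in control 3 after TMM scaling (trimmed mean of M values). In N+F libraries 1 to 4 it was at 3.82, 3.94, 4.25 and 8.48 CPM. Every N+F library lay below every control, and control 1 was nearer to the N+F libraries than to the other controls. The means were 96.6 ± 73.2 CPM (SD, n = 3) and 5.12 ± 2.25 CPM (SD, n = 4), and Col1a1 fell by 4.21 ± 0.65 (SE) on the log2 scale (edgeR quasi-likelihood test, adjusted p = 0.0375). Col1a2, its partner in the type I trimer, was at 8.09, 125.3 and 113 CPM in controls 1 to 3 and at 3.21, 4.47, 4.45 and 6.80 CPM in the N+F libraries. It had the same order of libraries between the groups, a log2 difference of -4.09 ± 0.68 and an adjusted p of 0.0573 in edgeR, which missed the threshold of 0.05. The count ratio of Col1a1 to Col1a2 ran from 0.880 to 1.49 in the 7 tissue libraries, so the pair kept close to each other while their level ranged widely.

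Col5a1 and Col5a2 encode type V collagen, which takes part in starting type I fibrils. Col5a1 was at 14.5, 26.6 and 30.7 CPM in controls 1 to 3 and at 6.03, 7.78, 3.85 and 5.68 CPM in N+F libraries 1 to 4. It fell by 2.02 ± 0.28 on the log2 scale (edgeR adjusted p = 0.0267), without overlap and with less distance between control 1 and the other controls than for type I. Col5a2 was at 8.20, 28.9 and 23.5 CPM against 4.62, 4.20, 1.09 and 3.68 CPM, a log2 difference of -2.55 ± 0.45 (edgeR adjusted p = 0.0736). The N+F libraries were again below all controls, and control 1 was the lowest of its group. The third type V chain, Col5a3, overlapped between the groups at 3.24 to 8.99 CPM in the controls and 1.98 to 7.23 in N+F (-0.39 ± 0.44, edgeR adjusted p = 0.876).

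Col12a1 encodes the FACIT that lies along type I fibrils. Its levels were 8.73, 16.5 and 14.9 CPM in controls 1 to 3 and 2.81, 2.95, 3.56 and 4.16 CPM in the N+F libraries. With the least scatter of these 6 chains, it fell by 1.97 ± 0.26 on the log2 scale (edgeR adjusted p = 0.0267). Col3a1, whose homotrimer shares fibres with type I in distensible tissues, was at 2.83, 14.0 and 7.59 CPM in the controls and 1.31, 1.07, 0.79 and 2.64 CPM in N+F. The groups did not overlap, but N+F 4 came close to control 1, and the log2 difference of -2.44 ± 0.53 had an edgeR adjusted p of 0.193. Exons of Col5a1 overlap those of 2 genes on the opposite strand in GENCODE, and the sources used here do not give whether counting used strand.

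**Figure D1:**
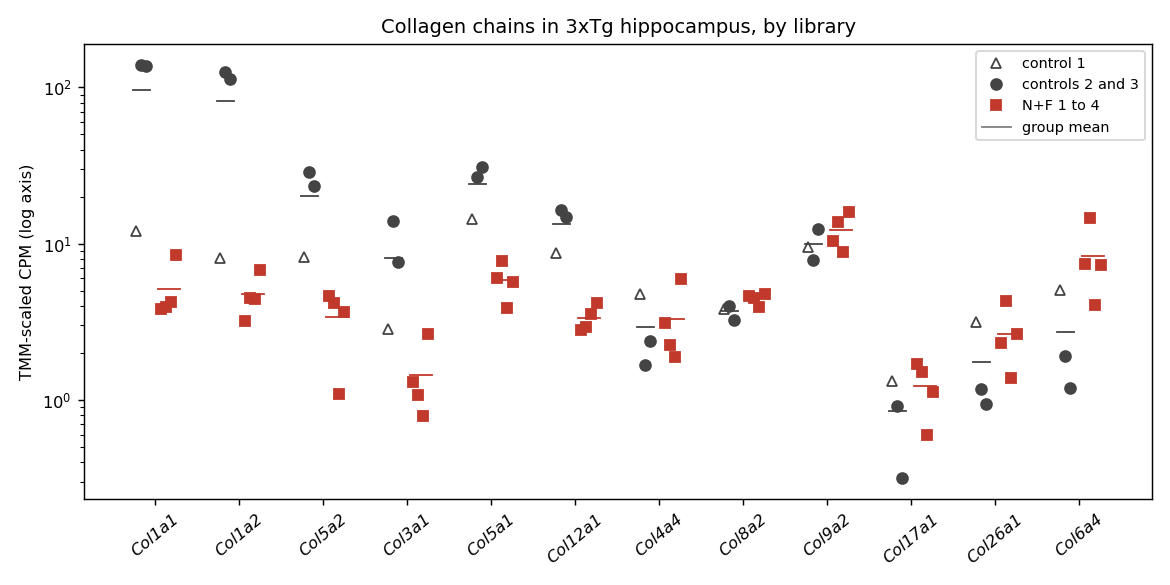
TMM-scaled CPM (log axis) of 12 collagen chains in each of the 7 tissue libraries, with control 1 as an open triangle, controls 2 and 3 as filled circles, N+F libraries as squares and group means as short lines. For the 6 chains on the left every N+F library lies below every control, and for Col1a1 control 1 at 12.03 CPM lies far below controls 2 and 3 at 139.8 and 138 CPM.

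At the other end, Col6a4 had the largest positive difference of the chains tested. It encodes a type VI chain, and was at 5.08, 1.92 and 1.19 CPM in controls 1 to 3 and at 7.43, 14.6, 4.05 and 7.36 CPM in N+F. N+F 3 lay below control 1, so the groups overlapped, and the log2 difference of 1.54 ± 0.50 had an edgeR adjusted p of 0.368. Its exons overlap those of Gm36993 and Gm47575 on the opposite strand. The next were Col26a1 at 0.54, Col17a1, the transmembrane collagen of hemidesmosomes, at 0.47, and Col9a2, a FACIT of cartilage, at 0.30 on the log2 scale. Col8a2, a short chain collagen, was at 0.27 and Col4a4, a basement membrane chain, at 0.13. Their edgeR adjusted p-values ran from 0.810 to 0.969, and each had control values inside the N+F range or the reverse.

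Of the 44 chains 39 passed the filter on low counts. The other 5 (Col6a6, Col9a1, Col10a1, Col14a1 and Col28a1) had at most 38 counts in any tissue library. By edgeR 3 of the 39 were called lower and 0 higher, where 0.103% and 0.00644% of the 15523 genes tested were called lower and higher. At an unadjusted p under 0.05 edgeR had 10 chains lower and 1 higher (4.36% and 4.10% of all genes), and DESeq2 called 6 lower and 0 higher (0.467% and 0.395% of its 15197 genes). The 6 were Col1a1, Col1a2, Col3a1, Col5a1, Col5a2 and Col12a1. Every N+F library lay below every control for 7 chains, those 6 and Col19a1, and above every control for 0 (4.19% and 3.92% of all genes).

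By class, the 11 fibrillar chains had a median log2 difference of -0.86 and all 11 were negative. They held 2 of the 3 calls and 5 of the 7 chains without overlap. The cartilage fibrillar chains, Col2a1, Col11a1 and Col11a2, had values from -0.82 to -0.39 and overlapped. The 6 type IV chains had a median of -0.58, with 4 negative and 0 called by edgeR (1 at an unadjusted p under 0.05, 0 by DESeq2). Col4a1 and Col4a2, the main pair of vascular basement membrane, were at -0.56 ± 0.26 and -0.61 ± 0.34, and control 1 was their highest library at 36.2 and 72.2 CPM. The 7 FACITs tested had a median of -0.43 with 6 negative, the 5 type VI chains -0.17 with 4 negative, the multiplexins Col15a1 and Col18a1 -0.55, and the 4 transmembrane chains -0.05 with 3 negative. Across the 39 chains the median was -0.40 and 32 were negative (82.1%), beside a median of -0.004 and 50.8% negative for all genes tested.

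Outside the low group, the most abundant chains spread within the control group as widely as between the groups. Col6a1 was at 124.7, 40.2 and 52.1 CPM in controls 1 to 3 and at 76.5, 86.6, 39.8 and 49.7 CPM in N+F, a log2 difference of -0.20 ± 0.36 with full overlap. Col16a1, a FACIT of many connective tissues, was at 95.3, 42.3 and 22.2 CPM and at 38.9, 37.0, 17.7 and 22.7 CPM (-0.89 ± 0.40), with control 1 high and the rest intermixed. Col6a2 was at 37.9, 19.9 and 18.7 CPM against 10.5 to 20.9 CPM (-0.73 ± 0.27, edgeR adjusted p = 0.459). Col19a1, the chain outside the 6 that had no overlap, was at 7.12, 5.18 and 6.09 CPM in the controls and at 4.12, 4.47, 3.06 and 4.08 CPM in N+F. Its difference of -0.64 ± 0.24 was small beside those of the type I chains and missed the threshold (edgeR adjusted p = 0.468). Col8a1 (9.45 to 14.7 CPM in controls, 10.3 to 15.2 in N+F) and Col23a1, a transmembrane chain (10.7 to 22.6 and 9.88 to 19.4 CPM), had log2 differences of -0.05 and -0.08. Among the rarer basement membrane chains, Col4a5 was at -0.97 ± 0.48, Col4a6 at -0.72 ± 0.73 and Col4a3 at 0.07 ± 0.56, all overlapping. The 5 chains under the filter had from 0 to 38 counts a library, too few to show a difference at this depth.

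**Figure D2:**
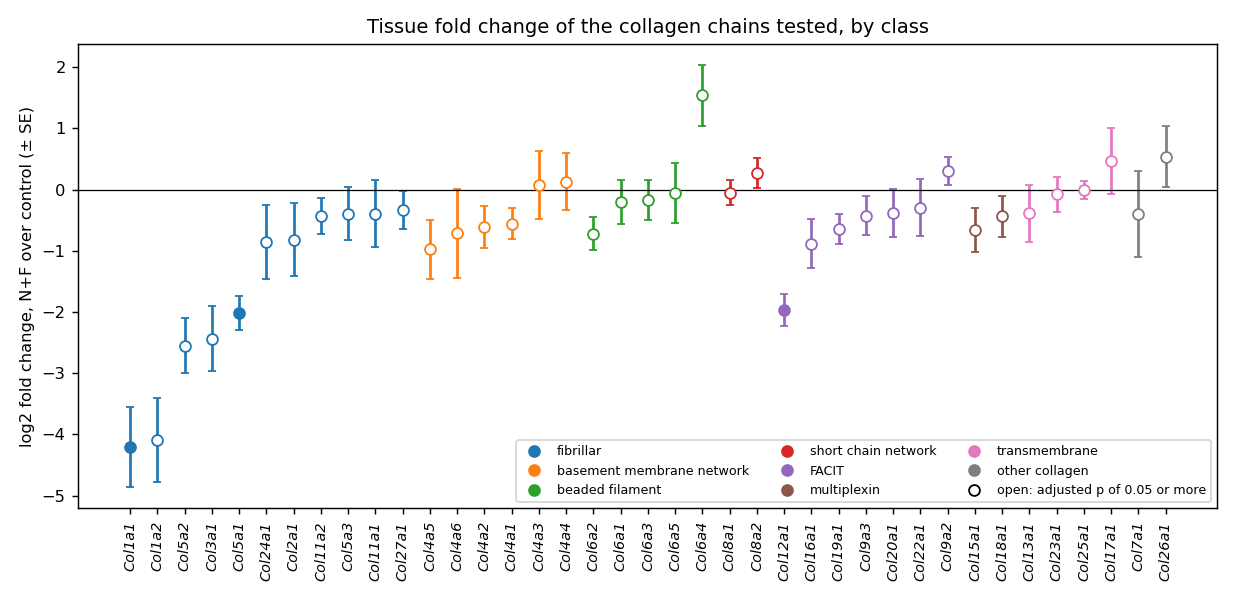
Log2 fold change of N+F over control with its standard error (edgeR) for the 39 collagen chains tested in tissue, ordered within class, filled where the adjusted p was under 0.05. Col1a1, Col5a1 and Col12a1 are filled, all 11 fibrillar chains lie below 0, and Col6a4 is the highest at 1.54.

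These results rest on single libraries in different ways. Without control 1, edgeR called 6 chains lower (adjusted p 3.51e-06 for Col1a1, 1.30e-06 for Col1a2, 0.0189 for Col3a1, 0.00111 for Col5a1, 0.00372 for Col5a2 and 0.00166 for Col12a1), while the median over the chains turned to 0.08. Without control 2, control 3 or any 1 of the N+F libraries edgeR called 0, although the sign of these 6 chains held in all 12 alternatives and their differences stayed between -4.75 and -1.79.

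Markers of other cells moved beside the fibrillar chains, and their part in the result was not tested. Of 15 meningeal fibroblast markers 14 were tested, with 11 negative, 0 called by edgeR (2 lower at an unadjusted p under 0.05, 0 by DESeq2) and a summed level of 120.1 CPM in control 1, 223 and 183 in controls 2 and 3 and 118 to 148 in N+F. Of the 15, Dpt alone was at 0 in any library (control 3 and N+F 2), and Dcn, the proteoglycan decorin of fibroblasts, was at 14.0, 26.6 and 31.3 CPM in the controls and 3.51 to 21.4 in N+F. Of 12 mural cell markers 10 were negative, 0 called (1 lower at an unadjusted p under 0.05, 0 by DESeq2), with sums of 103.7, 206 and 173 CPM and 101 to 133 CPM. Both sums were low in control 1, as were the type I chains. All 12 endothelial markers were negative, 0 called (4 lower at an unadjusted p under 0.05, 0 by DESeq2), with sums of 74.6 to 109 CPM and 55.2 to 80.0 CPM. Hippocampal excitatory neuron markers summed to 211 to 299 CPM in controls and 173 to 215 in N+F. Of these 10 markers 8 were negative with a median of -1.06, edgeR called 3 lower, 6 were lower and 1 higher at an unadjusted p under 0.05, DESeq2 called 4 lower, and 5 lay below all controls. Striatal markers summed to 547 to 2507 and 1825 to 3026, with 11 of 11 positive, a median of 0.89, 0 called by edgeR (2 higher at an unadjusted p under 0.05) and 1 higher by DESeq2. Over all genes 50.8% were negative, 4.36% were lower and 4.10% higher at an unadjusted p under 0.05, and 0.467% and 0.395% were called by DESeq2. By edgeR 0.103% were called lower and 0.00644% higher, and 4.19% lay below all controls. Choroid plexus markers summed to 1148 to 2879 and 175 to 3966. Of these 11 markers 10 were negative with a median of -0.44, but 0 were lower or higher at an unadjusted p under 0.05 in edgeR. Lower values were not limited to vascular and fibroblast lists. Of 12 microglia markers 10 were negative, 4 were lower at an unadjusted p under 0.05 and 3 lay below all controls. All 10 oligodendrocyte markers were negative and 2 were lower at that p, as were 9 and 2 of 12 astrocyte markers. Of 12 neuron markers 5 were negative and 2 were higher at that p. In these 4 lists edgeR and DESeq2 called 0.

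The machinery around the chains was read from lists of its genes, whose counts stand beside 50.8% negative, 4.36% lower at an unadjusted p under 0.05 and 0.467% called lower by DESeq2 over all genes. Of 22 genes of collagen synthesis and folding all were tested, 20 were negative with a median of -0.17, and edgeR called 0. At an unadjusted p under 0.05 there was 1, Serpinh1, the collagen chaperone, at -0.80 ± 0.32, and DESeq2 called 0. Of 12 cleavage and cross-linking genes tested the median was -0.06, edgeR called 0, 4 were lower at an unadjusted p under 0.05 and DESeq2 called 1, Lox. Lox, the lysyl oxidase that starts cross-linking, was at 1.04, 10.9 and 10.1 CPM in controls 1 to 3 and at 0.10, 0.54, 0.49 and 0.08 CPM in N+F, with 1 to 6 counts in each N+F library. Its log2 difference was -4.56 ± 0.81 (edgeR adjusted p = 0.0779), with control 1 again between the groups, as for Col1a1. Of 9 collagen receptors tested edgeR called 0, with 1 lower (Itgb1, -0.38) and 1 higher (Ddr2, 0.32) at an unadjusted p under 0.05 and 0 by DESeq2. Of 21 other fibroblast matrix genes tested 19 were negative with a median of -0.77, edgeR called 0, 9 were lower at an unadjusted p under 0.05 and DESeq2 called 2, Fn1 and Postn. Fibronectin (Fn1) was at 21.2, 60.2 and 61.6 CPM in the controls and 15.0 to 27.7 in N+F, so control 1 lay within the N+F range.

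Per kilobase of merged exon (GENCODE vM21), Col1a1 and Col1a2 were the highest chains in controls 2 and 3, at 23.3 and 23.2 CPM per kb in control 2 and 23.4 and 21.3 in control 3. Col6a1, a ubiquitous type VI chain, was the highest in control 1 at 33.8 CPM per kb and in all 4 N+F libraries at 8.68 to 21.2. So the order of the chains in control 1 resembled that of the N+F libraries at its top, and Col25a1, a neuronal transmembrane collagen found in amyloid plaques, kept the same level in both groups, at 30.0 to 35.7 TMM-scaled CPM in controls and 27.6 to 38.5 in N+F.

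**Figure D3:**
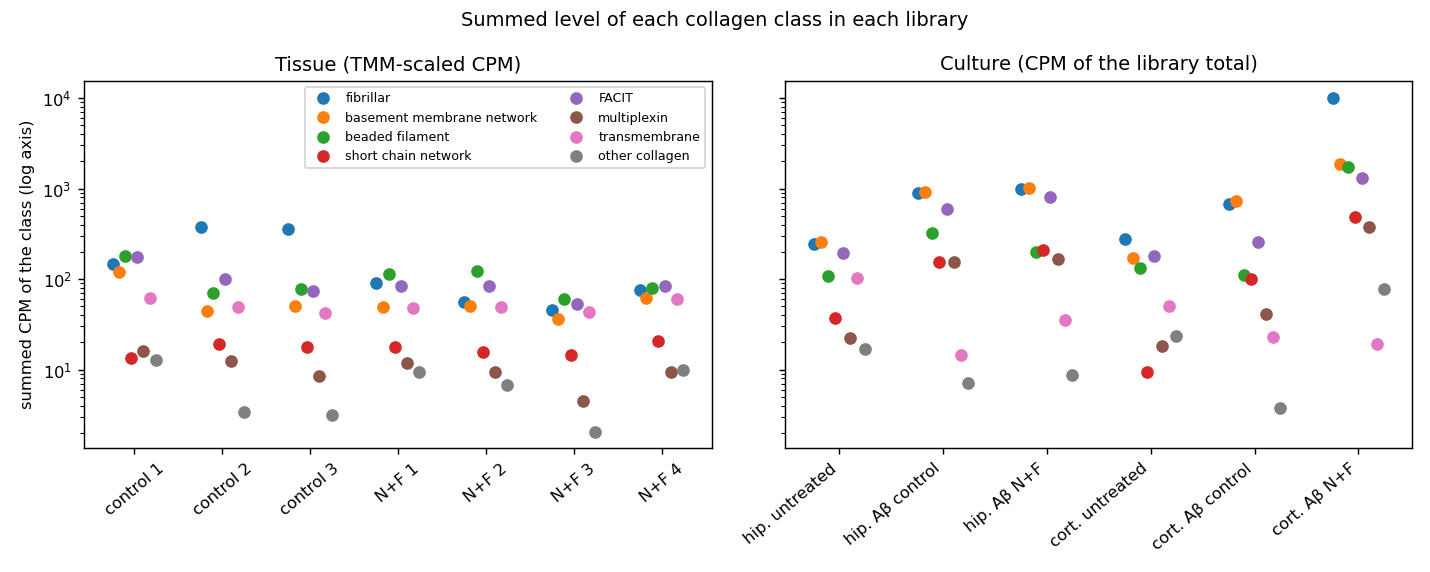
Summed level of all chains of each collagen class in each library (log axis), tissue on the left as TMM-scaled CPM and culture on the right as CPM of the library total. The fibrillar sum is 374 and 356 CPM in controls 2 and 3, 148 in control 1 and 45.1 to 90.5 in N+F, and in culture it is highest in cortical N+F glia at 10066 CPM.

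In cultured glia the first comparison was amyloid beta control against untreated, with 1 library a group and hence no replicate error. Levels are CPM of the library total, and a difference is a log2 ratio of CPM with 1 added, which understates changes of low chains. Basement membrane chains Col4a5 and Col4a6, the fibril chains Col5a2, Col11a1 and Col1a1, and Col12a1, Col8a1 and Col18a1 were higher in the amyloid beta control of both regions. Col19a1, Col25a1, Col15a1, Col24a1, Col6a4, Col8a2, Col9a2 and Col13a1 were lower in both. All collagen chains together took 0.0980% of counts in untreated and 0.306% in amyloid beta control hippocampal glia, and 0.0862% and 0.194% in cortical glia.

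Col4a6 and Col4a5, which form a trimer of smooth muscle and epithelial basement membranes, stood at the top of the chains that were higher in both regions. In hippocampal glia Col4a6 went from 2.90 to 239 CPM, and in cortical glia from 1.92 to 240.0 CPM. Col4a5 was at 12.3 and 273 CPM in hippocampal and at 7.49 and 215 CPM in cortical glia. Both pairs were far apart in both regions, at log2 ratios of 5.94 and 6.37 for Col4a6 and 4.36 and 4.67 for Col4a5. Col4a1 and Col4a2, which form the common type IV trimer, did not go together. Col4a1 was at 92.3 and 302 CPM in hippocampal and 66.2 and 206 CPM in cortical glia, and Col4a2 at 137 and 104 and at 94.8 and 68.0 CPM. Col4a1 is listed on 2 lines whose values move in opposite ways, one from 46.2 to 302 CPM and the other from 46.1 to 0.09 CPM in hippocampal glia, and the exons of the pair overlap on opposite strands.

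Among fibrillar chains, hippocampal Col5a2 went from 19.3 to 287 CPM and cortical Col5a2 from 14.5 to 282 CPM. Col11a1, the chain that nucleates cartilage fibrils, went from 32.2 to 130 and from 18.2 to 94.9 CPM. Col1a1 went from 16.7 to 110.2 and from 15.3 to 47.0 CPM, which reached 2-fold in both regions, while Col1a2 went from 26.9 to 137 and from 27.6 to 51.5 CPM and did so in hippocampal glia alone. The ratio of the type I chains was thus smaller in the cortical pair of libraries, a difference that has no test here. Col3a1 went from 6.76 to 31.7 CPM in hippocampal glia but from 6.40 to 1.96 CPM in cortical glia. Among the other classes Col12a1 went from 14.1 to 498 and from 22.2 to 191 CPM, Col8a1, a chain of vessel walls, from 18.8 to 153 and from 5.48 to 101 CPM, and Col18a1, the source of endostatin, from 12.8 to 153 and from 7.68 to 40.5 CPM.

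Of the chains that were lower, some were close to 0 with amyloid beta and others kept a clear level. In hippocampal glia Col25a1 went from 75.7 to 0.08 CPM, and in cortical glia from 25.2 to 0.07 CPM. Col19a1, a FACIT made by some neurons, was at 54.4 and 0.04 CPM in hippocampal and at 69.6 and 0.23 CPM in cortical glia. The hippocampal Col19a1 ratio rests on 3 counts and was 0.000738 (95% counting interval 0.000152 to 0.00216). Col13a1, the transmembrane collagen of the neuromuscular junction, had 0 counts in both amyloid beta controls and was at least 54.9-fold and 33.7-fold lower, set against a floor of 3 counts per library. Counting error in the untreated library widens this, with upper 95% counting limits on the ratio of 0.0227 and 0.0372. The interval and the floor take in counting error alone. Col15a1, a vascular multiplexin, went from 9.49 to 0.35 and from 10.7 to 0.49 CPM, Col24a1 from 2.40 to 0 and from 16.3 to 0.08 CPM, and Col6a4 from 4.57 to 0.05 and from 4.87 to 0.12 CPM. Col8a2 went from 17.8 to 1.38 and from 3.97 to 0.69 CPM, and Col9a2 from 9.75 to 2.52 and from 13.2 to 1.43 CPM.

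Some chains were lower in both regions without reaching 0. Col27a1, a fibrillar chain of cartilage, was at 16.9 and 4.59 CPM in hippocampal and at 16.1 and 5.60 CPM in cortical glia. Col7a1, the chain of anchoring fibrils, was at 11.01 and 4.52 CPM and at 10.998 and 2.83 CPM, and Col6a3 at 7.69 and 2.68 CPM and at 3.43 and 0.23 CPM. Other chains stayed within 2-fold in at least 1 region, and these included several of the more abundant ones. Col11a2 was at 66.4 and 36.5 CPM and at 51.9 and 37.0 CPM, Col16a1 at 29.8 and 37.1 CPM and at 33.1 and 26.5 CPM, and Col23a1 at 21.8 and 13.5 CPM and at 22.3 and 21.7 CPM. Col5a1 was at 45.4 and 133 CPM in hippocampal but at 100.7 and 104 CPM in cortical glia, and Col6a1 at 68.5 and 246 CPM but at 99.3 and 79.5 CPM. Both thus parted from Col5a2, which was higher in both regions, through the cortical pair. Col9a3, the highest chain per kilobase in untreated hippocampal glia at 22.2 CPM per kb, was at 67.7 and 24.4 CPM there and at 25.6 and 20.6 CPM in cortical glia.

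Of the 40 chains at 1 CPM or more in a library of each pair, 11 were at least 2-fold higher in both regions and 13 at least 2-fold lower, where 16.6% and 21.5% of 14516 genes were. In the hippocampal pair alone 16 were higher and 15 lower (21.0% and 25.5% of all genes), and in the cortical pair alone 12 and 17 (19.9% and 25.1%). The medians over the 40 chains were -0.62 in hippocampal and -0.31 in cortical glia, beside -0.03 and -0.01 for all genes at that level. An edgeR fit with region and condition as additive terms used all 6 libraries and had 2 residual degrees of freedom, which leaves the disagreement of the regions as its error. No replicate culture enters it. It called 9 chains higher and 9 lower of 44 (15.9% and 17.2% of 16762 genes). Col4a6 was at 6.64 ± 0.51 on the log2 scale (edgeR adjusted p = 0.00232), Col4a5 at 4.64 ± 0.53 (edgeR adjusted p = 0.00462) and Col19a1 at -9.04 ± 0.68 (edgeR adjusted p = 0.00223), and Col1a1 missed the threshold at 2.45 ± 1.46 (edgeR adjusted p = 0.246). Leaving out a library moved the number of calls from 18 to between 6 (without the hippocampal amyloid beta control) and 25 (without either N+F library).

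The make-up of cells differed between the untreated and amyloid beta control libraries by their markers, whose part in these results was not tested. Of 12 neuron markers 11 were at least 2-fold lower in both amyloid beta controls and 0 higher, with sums of 14341 and 17326 CPM in the untreated hippocampal and cortical libraries and 330.4 and 311 CPM in the amyloid beta controls. The 10 oligodendrocyte markers were all lower, at 9235 and 7772 CPM against 300.5 and 174 CPM. Of 12 endothelial markers 11 were lower, with sums of 302 and 319 CPM against 123 and 119 CPM, and choroid plexus markers summed to 4509 and 516 CPM against 8.11 and 5.96 CPM. Of 12 microglia markers 10 were lower, with sums of 610 and 639 CPM against 97.3 and 156 CPM, and of 7 oligodendrocyte precursor markers 3 were lower and 1 higher, with sums of 306 and 298 CPM against 127 and 159 CPM. Astrocyte markers, by contrast, summed to 8006 and 9457 CPM in the untreated and 10243 and 11965 CPM in the amyloid beta control libraries. Of 12 mural markers 7 were lower and 3 higher (sums 358 and 349.7 against 1797 and 1028 CPM), with Abcc9 and Higd1b at 0 counts in both amyloid beta controls. Of 15 fibroblast markers 7 were lower and 3 higher (sums 229.7 and 214 against 694 and 839 CPM), with Slc22a6 and Dpt at 0 counts in both.

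**Figure D4:**
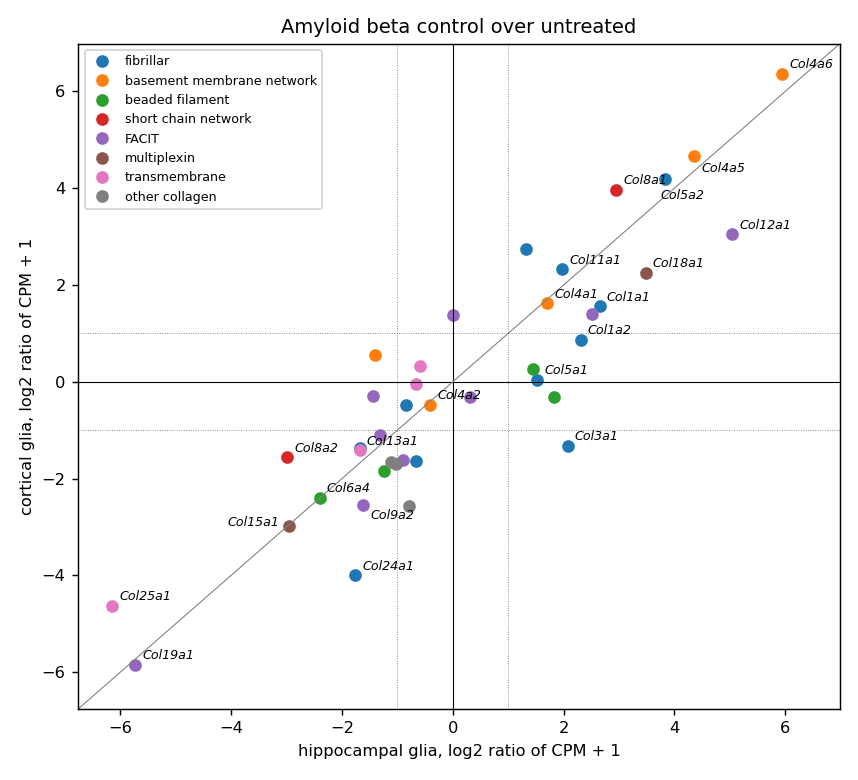
Log2 ratio of CPM with 1 added, amyloid beta control over untreated, in hippocampal glia (x axis) against cortical glia (y axis) for the 40 collagen chains at the level, coloured by class, with dotted lines at 2-fold and the diagonal where both regions are equal. Col4a6 lies at 5.94 and 6.37 and Col19a1 at -5.74 and -5.84, and Col3a1 lies at 2.07 and -1.32.

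Most of the genes listed for making and cross-linking collagen went with the chains that were higher, by RNA counts. Of 22 synthesis and folding genes 15 were at least 2-fold higher in both regions and 0 lower, among them P4ha3, a prolyl hydroxylase subunit, at 4.58 and 4.78 and Plod2, a lysyl hydroxylase, at 3.63 and 3.53 on the log2 scale. Of 12 cleavage and cross-linking genes 7 were higher, with Lox at 4.01 and 3.23 and Loxl2 at 4.77 and 3.29, and 1 lower, Adamts3, a procollagen proteinase, at -2.83 and -1.62. Of 10 receptors 5 were higher, led by the integrin chain Itga1 at 3.97 and 3.83, and 2 were lower. Of 22 other matrix genes 13 were higher, with Tnc (tenascin C) at 5.26 and 5.99, and 4 were lower, with Dcn at -3.80 and -3.32. These counts stand beside the 16.6% higher and 21.5% lower of all genes.

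The second culture comparison set N+F against the amyloid beta control, and so shares the amyloid beta control libraries with the first. In hippocampal glia the chains above 100 CPM in the control were all within 2-fold of it, from 0.612 times for Col6a1 to 1.41 times for Col12a1. In cortical glia 23 of the 33 chains at 1 CPM or more in a library of each pair were at least 2-fold higher. Col3a1, Col6a3, Col1a1 and Col1a2 had the 4 highest log2 ratios of CPM with 1 added. Col15a1 and Col24a1 missed that level in hippocampal glia. They were also over 2-fold higher in cortical N+F glia, from 0.49 to 2.57 and from 0.08 to 2.18 CPM. Collagens took 0.343% of all counts in hippocampal N+F glia against 0.306% in its control, and 1.59% in cortical N+F glia against 0.194%. Cortical N+F is a single library, and its difference from the hippocampal one has no replicate check.

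Col1a1 was at 110.2 and 110.6 CPM in hippocampal amyloid beta control and N+F glia, and at 47.0 and 2894 CPM in the cortical ones. Col1a2 was at 137 and 139 CPM and at 51.5 and 3030 CPM, in step with its partner. Col3a1 was at 31.7 and 33.6 CPM and at 1.96 and 2033 CPM, which is a ratio of 1.06 in hippocampal and 1037 in cortical glia. These 3 chains made up 49.9% of the collagen counts of the cortical N+F library, 5.18% of those of its control and 8.26% of those of hippocampal N+F glia. Per kilobase they were its 3 highest chains, Col1a2 at 566, Col1a1 at 488 and Col3a1 at 365 CPM per kb. The highest chain per kilobase in the cortical control was Col5a2, at 42.5 CPM per kb.

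Of the chains that had low levels with type I in the tissue, Col5a1 was at 133 and 134 CPM in hippocampal and at 104 and 638 CPM in cortical glia. Col5a2 was at 287 and 334 CPM and at 282 and 1095 CPM, and Col12a1 at 498 and 704 CPM and at 191 and 1096 CPM. All 3 were thus over 2-fold higher in the cortical pair and under 2-fold apart in the hippocampal pair. Of the type VI chains, Col6a1 and Col6a2 were lower in hippocampal and higher in cortical N+F glia. Col6a1 was at 246 and 151 CPM in hippocampal and 79.5 and 1097 CPM in cortical glia, and Col6a2, its partner, at 68.8 and 43.1 and at 30.3 and 557 CPM. Col6a3, the chain that joins them in the trimer, was at 2.68 and 4.15 CPM and at 0.23 and 74.7 CPM. It was thus higher in both regions, by under 2-fold in the hippocampal pair. It is listed on 2 lines, one of which has 72.3 CPM in cortical N+F glia and at most 0.03 CPM in any other culture library.

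Basement membrane and associated chains were also higher in the cortical N+F library. Col4a1 was at 302 and 385 CPM in hippocampal and at 206 and 691 CPM in cortical glia, and Col4a2 at 104 and 132 CPM and at 68.0 and 403 CPM. Col18a1 was at 153 and 166 CPM and at 40.5 and 376 CPM, and Col8a1 at 153 and 199.6 CPM and at 101 and 469 CPM. Each of these 4 was under 1.5-fold apart in the hippocampal pair and over 3-fold apart in the cortical pair. Col7a1 was at 4.52 and 6.37 CPM and at 2.83 and 75.7 CPM, and Col2a1, the cartilage chain, at 1.36 and 2.48 CPM and at 0.20 and 21.1 CPM. Col4a6 was at 239 and 205 CPM and at 240.0 and 316 CPM, so the chain with the largest amyloid beta ratios moved little with N+F in either region. The neuronal Col25a1 and Col19a1 were under 0.3 CPM in both N+F libraries.

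The chains that were 2-fold higher in both regions were Col8a2, Col10a1 and Col14a1, all of low level. Col14a1, a FACIT of fibroblasts, was at 0.33 and 12.9 CPM in hippocampal and 0.20 and 3.27 CPM in cortical glia. Col8a2, a chain of the corneal endothelial membrane, was at 1.38 and 6.53 CPM and at 0.69 and 7.75 CPM. Col10a1, the collagen of hypertrophic cartilage, had 0 and 196 counts in hippocampal glia, at least 80.7-fold higher against the floor of 3 counts (lower 95% counting limit on the ratio 65.0), and 3 and 810 counts in cortical glia, a ratio of 209 (95% counting interval 71.4 to 1018). All 3 chains were above their controls in both regions, and Col10a1 exons overlap those of Nt5dc1 on the opposite strand. Of these, Col8a2 and Col14a1 were at least 2-fold lower in the amyloid beta control than in the untreated libraries, at 17.8 and 3.97 CPM and at 2.32 and 1.57 CPM untreated.

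At 1 CPM or more in a library of each pair stood 33 chains. In both regions 3 were at least 2-fold higher and 0 lower, where 2.07% and 0.119% of 13479 genes were. In the hippocampal pair alone 5 were higher, with Col27a1 and Col23a1 beside those 3, and 0 lower (4.95% and 0.779% of all genes), and the median was 0.19 beside 0.12. In the cortical pair alone 23 were higher and 2 lower, Col4a4 and Col9a1 (11.6% and 15.4%), and the median was 1.95 beside -0.18. The additive edgeR fit called 0 of 44 chains and 0 of 16762 genes, with 4 chains at an unadjusted p under 0.05, while DESeq2 with the same terms called 7 higher and 0 lower (Col1a1, Col1a2, Col6a3, Col8a2, Col10a1, Col14a1 and Col24a1). With 5 CPM added in place of 1 no chain was 2-fold apart in both regions.

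**Figure D5:**
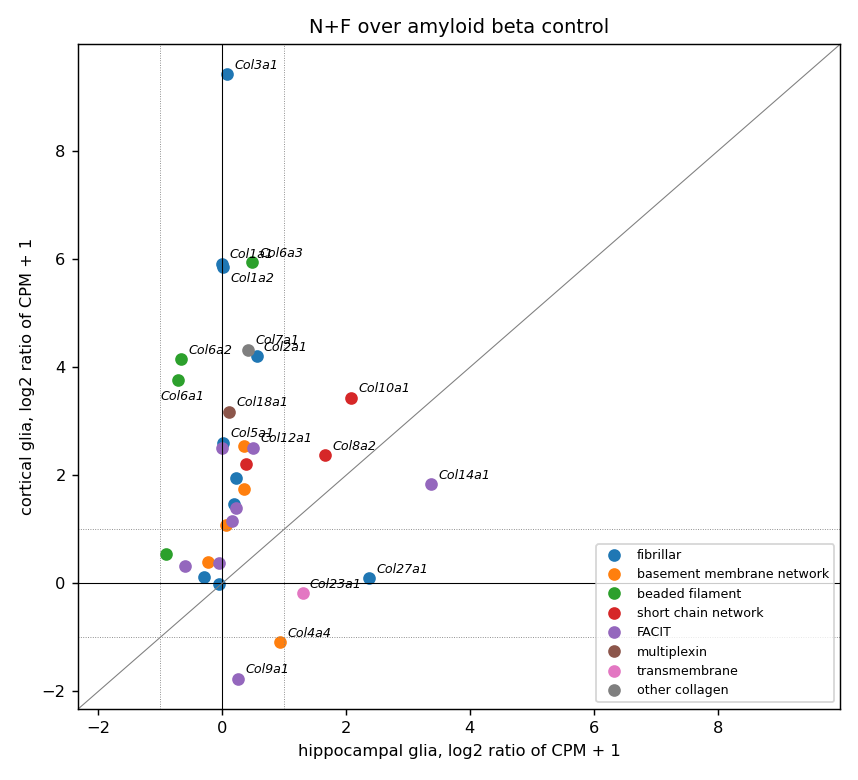
Log2 ratio of CPM with 1 added, N+F over amyloid beta control, in hippocampal glia (x axis) against cortical glia (y axis) for the 33 collagen chains at the level, coloured by class, with dotted lines at 2-fold and the diagonal where both regions are equal. Most chains lie near 0 on the x axis and above 0 on the y axis, with Col3a1 at 0.08 and 9.42, while Col10a1, Col8a2 and Col14a1 lie beyond 2-fold on both.

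Most fibroblast markers at the level were higher in the cortical N+F library, as were many markers of some other cells. Their part in the result was not tested. Of 15 fibroblast markers 11 were at the level, and 8 of these were at least 2-fold higher and 1 lower in the cortical pair, with 0 either way in the hippocampal pair. Over all genes 11.6% and 15.4% were higher and lower in the cortical pair, and 4.95% and 0.779% in the hippocampal pair. The list summed to 839 and 1387 CPM in cortical and to 694 and 577 CPM in hippocampal glia. Dcn was at 0.49 and 329 CPM and Lum (lumican) at 0 and 113 CPM in cortical glia, against 2.19 and 3.74 and 0.90 and 0.89 CPM in hippocampal glia. Transcription factors of meningeal and mesenchymal cells went the same way in cortical glia, Twist1 from 0.92 to 34.6 CPM and Tbx18 from 0.16 to 35.8 CPM. The fibroblast marker Islr went the other way there, from 418 to 152 CPM, and Ogn stayed level at 192 and 191 CPM. The marker Slc22a6 was at 0 counts in all 4 of these libraries, and Dpt had 8 counts in cortical N+F glia and 0 in the others. Mural markers summed to 1028 and 1428 CPM in cortical and 1797 and 1872 CPM in hippocampal glia, with Kcnj8 and Higd1b at 0 counts in both N+F libraries. Other lists also had higher markers in the cortical pair. At least 2-fold higher were 5 of 7 oligodendrocyte, 3 of 5 oligodendrocyte precursor, 3 of 5 endothelial and 4 of 8 neuron markers at the level. In the same order 1, 0, 1 and 1 were lower. Pdgfra is in both the fibroblast and the oligodendrocyte precursor lists and so counts in each, here and with amyloid beta. It went from 15.8 to 69.1 CPM in the cortical pair. Of 11 microglia markers 3 were higher and 1 lower, and of 12 astrocyte markers 0 were higher and 2 lower. Choroid plexus markers summed to 5.96 and 408 CPM in cortical and 8.11 and 22.4 CPM in hippocampal glia, but did not rise together. Of 11 such markers 4 were at the level. In the cortical pair 1 was at least 2-fold higher and 1 lower, with 3 negative and a median log2 ratio of -0.32. In the hippocampal pair 1 was higher and 0 lower.

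Of the genes around the chains, 13 of 22 synthesis and folding genes were at least 2-fold higher in the cortical pair and 0 in the hippocampal pair, with 0 lower in either. Over all genes 11.6% were higher in the cortical pair, 4.95% in the hippocampal pair and 2.07% in both. Of 13 cleavage and cross-linking genes 9 were higher in the cortical and 4 in the hippocampal pair, and 3 in both. Lox was at 35.3 and 86.3 CPM in hippocampal and 18.5 and 2216 CPM in cortical glia, which is the same order of regions as for Col1a1. The receptor chain Itga11, which binds type I collagen, was higher in both, at 3.48 and 13.8 CPM and at 0.71 and 31.8 CPM. Of 20 other matrix genes 15 were higher in the cortical and 1 in the hippocampal pair, and Postn (periostin) was higher in both, at 1.75 and 25.5 CPM and at 0.48 and 25.6 CPM. The fibroblast markers and the other matrix genes share 5 genes.

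Hippocampal glia were then set directly against cortical glia, for the 32 chains at 1 CPM or more in a library of each of the 3 pairs. Of these 32, 0 kept 1 direction at 2-fold or more in all 3 conditions. Over 12787 genes at that level 0.117% were higher in hippocampal glia and 0.00782% lower. In the untreated pair 4 of the 32 were higher in hippocampal glia (Col4a4, Col8a1, Col8a2 and Col9a3) and 1 lower (Col5a1), beside 2.34% and 1.44% of all genes. Some chains outside that level also differed there. In untreated hippocampal and cortical glia Col25a1 was at 75.7 and 25.2 CPM, Col4a3 at 5.22 and 0.92 and Col24a1 at 2.40 and 16.3. In the amyloid beta control pair 12 were higher, among them Col1a1, Col1a2, Col3a1, Col6a1 and Col6a2, and 2 lower, beside 3.83% and 1.98%. In the N+F pair 2 were higher and 15 lower, beside 17.4% and 5.12%, and the same 5 chains were now among the lower ones. The order of the regions for these 5 chains was thus opposite in the amyloid beta control and N+F pairs of libraries.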

How the data were processed

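Whole-number counts, listed by gene symbol and not normalized by the authors (judged from library totals that differ), were what was deposited. Per the labels' protocols, RNA was taken up in Trizol and made into SMARTER mRNA-seq libraries. Per the submitters' processing notes, TopHat, HISAT2 and edgeR were used, with no version or role given, and the build named is the human hg19 although the symbols are mouse. The build behind the counts was therefore taken as not established, and coordinates are printed for RefSeq promoters alone. Lines of a symbol were summed, which joined several lines for 15 of the 44 chains in culture and 0 in tissue. Groups and replicate numbers came from sample titles. Each column matched 1 title, and 0 columns were left unused.

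The tissue comparison was fitted in edgeR 4.0.16 under R 4.3.3 (filterByExpr by group, TMM scaling with factors 0.895 to 1.11, quasi-likelihood test). Adjusted p-values (Benjamini-Hochberg) span all 15523 genes and are called under 0.05, and the standard error is the log2 fold change divided by the root of F. The biological coefficient of variation was 0.206. DESeq2 1.42.0 was an alternative. Within each tissue group no library was a repeat of another (chi-square per gene 15.0 to 56.1). Pairs across the tissue groups and the culture libraries were not checked for this. The edgeR tissue fit, the N+F term of the additive edgeR fit and the culture ratio were tested on simulated data, and the other steps were not. At these depths a count of 0 allows up to 3 counts, 0.119 to 0.294 CPM in tissue and 0.0383 to 0.0575 CPM in culture.

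The members, the gene lists and the tests were chosen with earlier results of these data known. Named chains were Col1a1, Col1a2, Col3a1, Col5a1 and Col12a1, every chain past the tissue test, up to 6 per direction of largest change in tissue at a mean of 1 CPM or more, up to 8 per direction in culture by mean log2 ratio among those 2-fold apart in both regions, and trimer partners. Other chains are named where a small count is spelled out, and were chosen after their values were seen. Of the lists, up to 4 genes per direction were named by the same rule, and in tissue genes at an unadjusted p under 0.05, likewise chosen after their values were seen. Alternatives covered scaling, filters, pseudocounts, fold thresholds, split lines, DESeq2, a replicate block and leaving out each library.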

Additional observations from a re-analysis of the deposited data

Results flagged for a closer look

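In the N+F tissue group 1 library lay far from the others for 3 chains, by the ratio of its gap to the group's range. Col1a1 was at 8.48 CPM in N+F 4, where the others were at 3.82 to 4.25 CPM. Col22a1 was at 2.81 CPM in N+F 1, where the others were at 1.61 to 1.78 CPM. Col13a1 was at 3.76 CPM in N+F 2, where the others were at 1.38 to 1.60 CPM. Chance flags about 1 in 20 such groups.

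In culture 4 chains went opposite ways in the regions by at least 1.5-fold each, a difference that was not tested because each group is 1 library. With amyloid beta, Col3a1 had a log2 ratio of 2.07 in hippocampal and -1.32 in cortical glia. With N+F, Col4a4 had 0.94 and -1.09, Col6a1 -0.71 and 3.77, and Col6a2 -0.66 and 4.15.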

How the results depend on the processing

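Tissue calls moved from 3 to 5 with no filter on low counts, to 6 with DESeq2, to 0 with the replicate block, and to 0 to 6 when each library was left out, the 6 without control 1. The deviations of same-numbered libraries from their group means had correlations of -0.005, -0.10 and 0.16, and those of differently numbered ones ran from -0.22 to 0.14. With so few libraries a group, these values cannot decide whether the numbers pair the samples, and the labels do not say. Under the replicate block the median was -0.42. RLE scaling and the line of largest total kept 3. The median ran from -0.66 to 0.075 over single libraries left out, positive without control 1 alone, and chains without overlap numbered 7 to 11, the 11 without control 3. Col4a4 ran from -0.33 to 0.70 and turned to -0.14 without control 2, -0.01 without control 3, -0.33 without N+F 4 and -0.21 with the replicate block. With amyloid beta, chains 2-fold apart went from 24 to 13 with 5 CPM added and 10 at 4-fold. The additive calls (a region's lone library being assumed to vary like the rest) went from 18 to 6 to 25 over libraries left out, fewest without the hippocampal amyloid beta control, with 10 without the hippocampal untreated, the cortical untreated or the cortical amyloid beta control. With N+F, chains 2-fold apart in both regions went from 3 to 0 with 5 CPM added, 1 at 4-fold, 5 in the hippocampal pair alone and 25 in the cortical pair alone, both chosen after seeing the data. Its additive calls went from 0 to 7 with DESeq2. The cause of these shifts was not tested. Chains under a few CPM in culture rest on few counts, and 1 library a group limits every culture value.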

Other observations

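Several chains are listed on more than 1 line in the culture table, and the lines did not always move together. For Col9a1, a FACIT of cartilage, one line held 1.78 CPM and the other 0 in hippocampal amyloid beta control glia, and 0 and 2.32 CPM in hippocampal N+F glia. For Col26a1, line 2 was at 0 in untreated and 2.14 CPM in amyloid beta control hippocampal glia, but at 6.17 and 0 CPM in cortical glia, while line 1 was lower with amyloid beta in both regions. For Col25a1, line 1 was at 56.7 and 15.7 CPM in the untreated hippocampal and cortical libraries and at 0 in the other 4. The sources used here do not say what the lines of a symbol stand for.

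The collagen chains tested in tissue were longer and richer in G+C than other genes, with medians of 6.31 kb and 56.1% against 3.29 kb and 49.7%. Across 14888 genes, which are not independent replicates, the log2 ratio of control 1 to the other controls had a correlation of -0.02 with G+C and 0.13 with log2 length. Across the 39 collagen chains these were 0.18 and 0.002.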
